A study of Eucalyptus camaldulensis with 12 samples.

Results

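The transcripts described here were 59 predicted transcripts of Eucalyptus camaldulensis leaves that stood higher at the end of a water stress experiment than at its start, in watered and in stressed seedlings alike. They were chosen from 41547 transcripts by their read counts scaled to library size (CPM, counts per 1000000 reads): the lowest CPM in the 6 libraries taken at the end had to be at least 5, and at least 2 times the highest CPM in the 6 libraries taken before the treatment. The chosen transcripts make up 0.142% of those examined and 0.488% of the 12096 that reached a CPM of 5 in all 6 end libraries. The same rule turned round, for transcripts lower at the end in both arms, was met by 160 transcripts. Since the rule used the levels before and after the treatment, the differences between the end and the start are given as values without a test.

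Seedlings from Katherine, Mt Isa and Petford, 3 populations, were grown in pots in a glass house for 5 months, and leaves were taken in August, before the treatment, and in October, at its end. The S1 libraries are stressed leaves after 2 months with pots kept at 30% of field capacity, and the C1 libraries are leaves of seedlings watered to field capacity over the same months. S0 and C0 are the leaves of the same seedlings before the treatment, from the stress arm and the control arm. Each library is a bulk of leaves of 10 seedlings (S1 and S0) or 5 seedlings (C1 and C0) of 1 population, so that each group has 3 libraries and the populations serve as replicates. The 2 months of growth, the season and the sampling date separate S1 and C1 from S0 and C0 in the same way, and for this set of transcripts they cannot be told apart. The Mt Isa C1 and Mt Isa S0 libraries carry a source description at odds with their titles, and both were placed by title and group label. The lowest of the 6 end values fell in Mt Isa C1 for 26 of the 59 transcripts, and without that library the rule was met by 102 transcripts. Without Mt Isa S0 it was met by 80, and in both cases all 59 were among them. RNA was read as an average over the leaf, so more cells of a type and more RNA per cell cannot be told apart.

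Much of what could be named in the set belongs to the heat shock proteins. Heat shock proteins are chaperones: HSP70 and HSP90 hold and refold client proteins with the use of ATP, and the small heat shock proteins bind unfolding proteins so that they do not aggregate. In plants they are best known from heat, where heat shock transcription factors switch them on, and they also accumulate under drought and other stresses and at certain stages of development. Small heat shock proteins sit in the cytosol, the chloroplast and the mitochondrion, each compartment with members of its own.

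A product name, from the best match to Arabidopsis, could be given to 17 of the 59 transcripts, which carry 16 different gene identifiers. Of these names 12 came by identical coordinates from a list that the study had selected for a difference between C1 and S1, and 5 came by the position of a SNP inside the transcript. Both lists were held here only in part, so a transcript without a name may have one in the full lists. Names are therefore not spread evenly: 28.8% of the set had one, against 5.09% of all transcripts examined. Heat shock proteins accounted for 8 of the 17. The other 42 are known here only by their place in the draft genome of E. grandis, whose release is not given in the sources used here. Every one of scaffolds 1 to 11 held at least 1 of the 59, and 3 lay on other scaffolds. The median span was 2220 bases (186 to 8286). Another predicted transcript overlapped 11 of the 59 (18.6%, against 9.5% of all examined), and reads of overlapping transcripts cannot be assigned to one of them with certainty.

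Together the 59 transcripts took 1.65 to 2.28% of all reads in the S1 libraries and 0.524 to 0.888% in the C1 libraries, against 0.128 to 0.154% in S0 and 0.12 to 0.166% in C0. Their median level was 87 to 133 CPM in S1 and 33.9 to 43.7 CPM in C1, and 6.82 to 10.3 CPM in S0 and 8.51 to 8.8 CPM in C0. The start libraries of both arms were thus near each other, and the end libraries were not. CPM values here are shares of a library's reads and are not corrected for transcript length, so they compare libraries for a transcript and not transcripts with each other. By group means, single transcripts stood 2.58 to 301 times higher in S1 than in S0, leaving aside 1 with no read in S0, and 2.39 to 28.4 times higher in C1 than in C0.

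**Figure D1:**
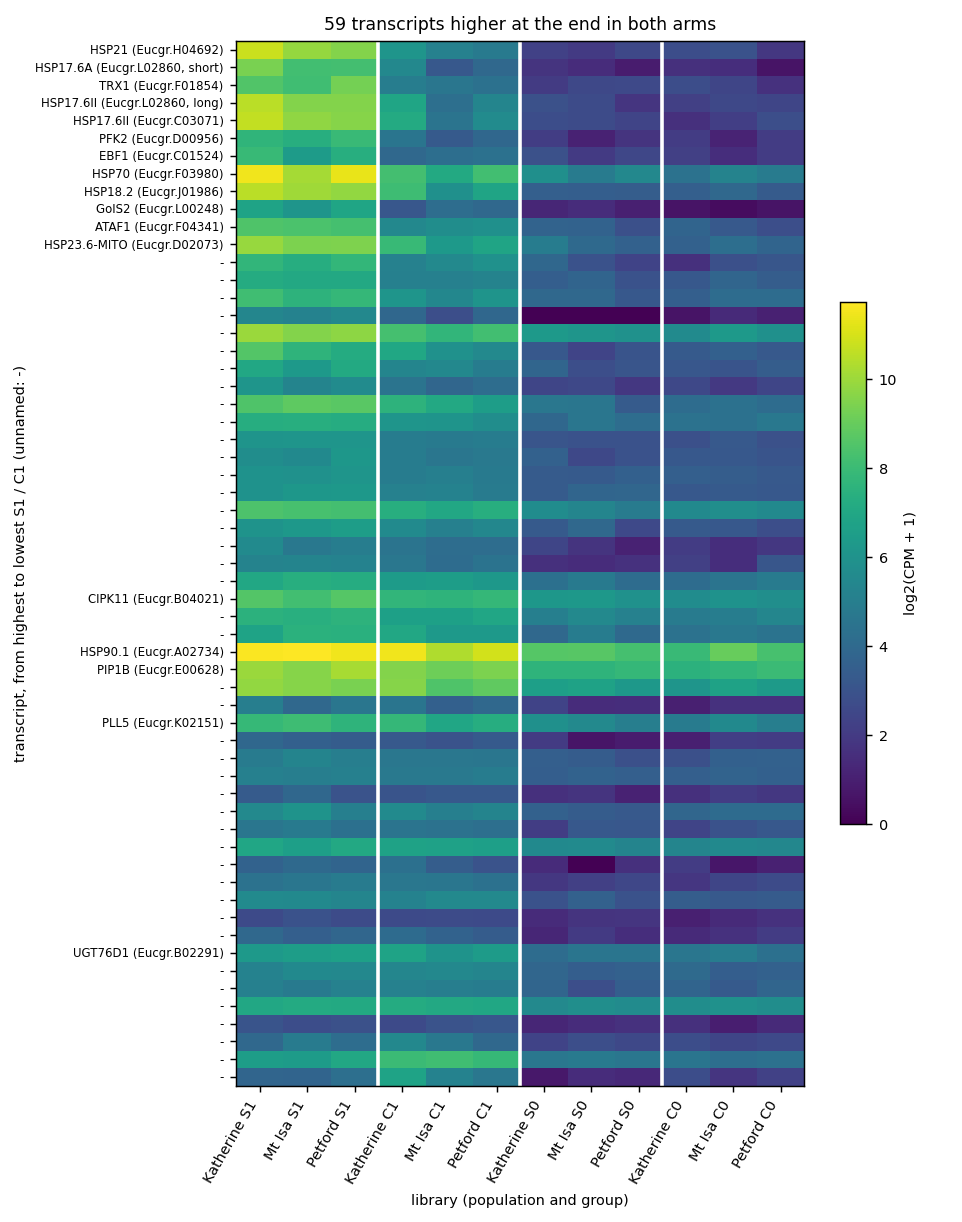
Level of each of the 59 transcripts (rows) in each of the 12 libraries (columns, grouped S1, C1, S0, C0), as log2(CPM + 1); white lines separate the groups and a hyphen marks a transcript without a product name. Rows run from the highest to the lowest S1 over C1 ratio: the heat shock proteins other than HSP90.1 sit near the top, with group means up to 2217 CPM in S1, and the lowest rows are about level in S1 and C1 or lower in S1.

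Cytosolic chaperones of the HSP90 and HSP70 families took the most reads of the set in S1. Values per library are given in the order Katherine, Mt Isa and Petford throughout. Eucgr.A02734 (scaffold 1 from 37934135 to 37937841), matching the heat-inducible HSP90.1, also called HSP81-1, had 3303.6, 3412.1 and 2877.1 CPM in S1 and 2887.9, 1299.5 and 1971.6 CPM in C1, against 398, 411 and 311 CPM in S0 and 251, 514 and 321 CPM in C0. Watered leaves thus held a large part of the level of stressed leaves, and Katherine C1 lay just above Petford S1. Eucgr.F03980 (scaffold 6 from 48079025 to 48081589), matching HSP70, had 2895.6, 1154 and 2602.4 CPM in S1 and 303, 138 and 286 CPM in C1, against 56.9, 28.5 and 43.6 CPM in S0 and 20.8, 37 and 28.6 CPM in C0. For this chaperone S1 was far above C1 in every population, while C1 was above both start groups.

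Among the small heat shock proteins of the cytosol, Eucgr.J01986 (scaffold 10 from 25924618 to 25926884), matching HSP18.2, had 1472.3, 1070.5 and 915 CPM in S1 and 268, 58.3 and 115 CPM in C1, against 10.7, 10.3 and 9.89 CPM in S0 and 10.6, 14.7 and 9.35 CPM in C0. Eucgr.C03071 (scaffold 3 from 57690815 to 57691775), matching the class II protein HSP17.6II, had 1604.5, 872 and 783 CPM in S1 and 145, 22 and 49.2 CPM in C1, against 5.86, 5.45 and 4.26 CPM in S0 and 2.13, 3.51 and 6.05 CPM in C0. In both, Katherine was the highest population within S1 and within C1, and S0 and C0 overlapped. Gene identifier Eucgr.L02860 covers a pair of overlapping transcripts on scaffold 1518, which share reads and are not independent. The longer (8584 to 9566, matching HSP17.6II) averaged 1001.9 ± 423 CPM in S1 and 59.2 ± 53.7 CPM in C1, against 4.85 ± 2.06 CPM in S0 and 4.31 ± 0.539 CPM in C0 (SD, n = 3 each). The nested one (9287 to 9566, matching HSP17.6A) averaged 416 ± 209 CPM in S1 and 22.1 ± 18.9 CPM in C1, against 1.69 ± 0.787 CPM in S0 and 1.53 ± 0.856 CPM in C0.

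The organelles were represented as well. Eucgr.H04692 (scaffold 8 from 67232451 to 67234283), matching HSP21 of the chloroplast, had 1793.5, 939 and 753 CPM in S1 and 69.4, 35.1 and 27.1 CPM in C1, against 3.79, 3.03 and 4.77 CPM in S0 and 5.85, 6.71 and 2.75 CPM in C0. It had the highest S1 over S0 ratio of the set among transcripts with reads in S0, 301, beside a C1 over C0 ratio of 8.6. Eucgr.D02073 (scaffold 4 from 34890847 to 34892273), matching the mitochondrial HSP23.6-MITO, had 975, 689 and 712 CPM in S1 and 239, 78.6 and 115 CPM in C1, against 29.3, 15.1 and 11.4 CPM in S0 and 11.7, 18.2 and 12.7 CPM in C0. That C1 lies above both start groups is set by the rule, and copies outside the set need not follow it. Eucgr.K00423, also matching HSP21, averaged 1145 CPM in S1 and 5.16 CPM in C1, against 8.92 CPM in S0 and 8.3 CPM in C0, and Eucgr.L02980, a further HSP21 match, 1296.2 CPM in S1 and 6.2 CPM in C1, against 10.9 CPM in S0 and 8.48 CPM in C0.

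**Figure D2:**
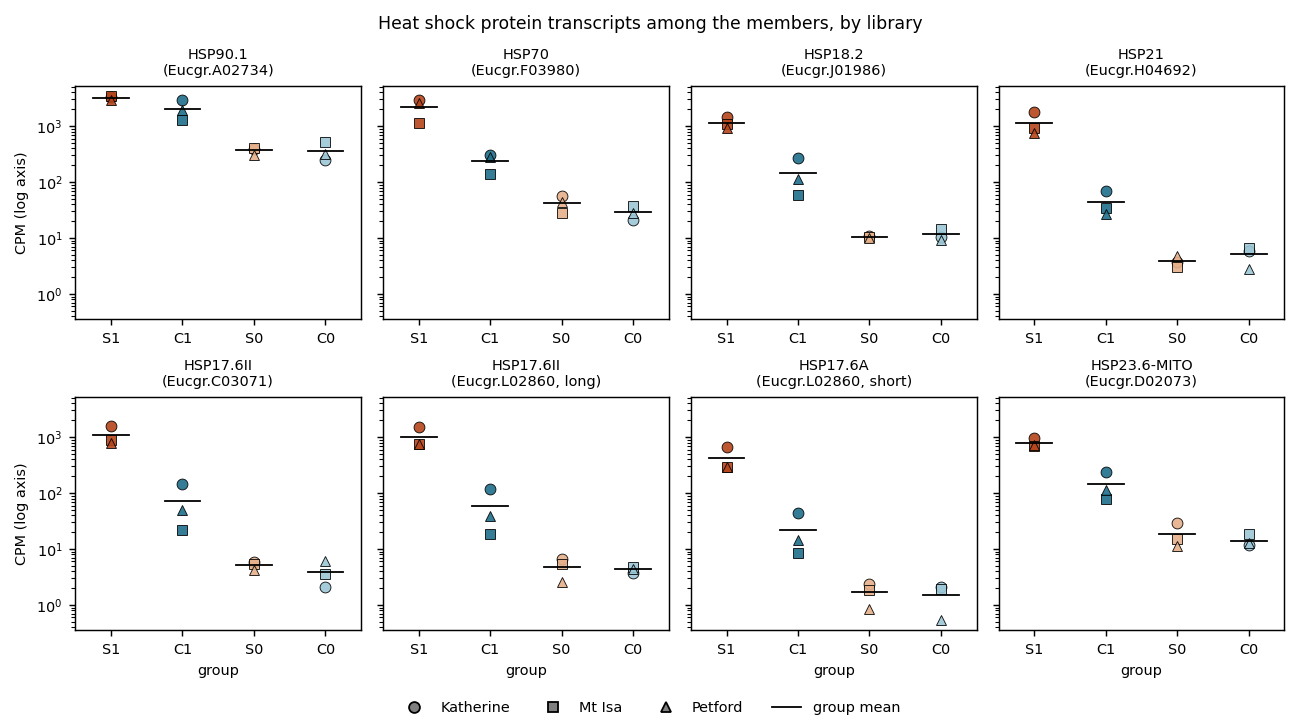
CPM (log axis) of the 8 heat shock protein transcripts in each library of S1, C1, S0 and C0; symbols mark the populations and lines the group means. C1 lies between S1 and the start groups in each panel, closest to S1 for HSP90.1 (2053 CPM in C1 and 3198 CPM in S1, as group means) and farther below it for HSP21 (43.9 CPM in C1 and 1162 CPM in S1).

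Other named transcripts belong to signalling and gene control. Eucgr.F04341 (scaffold 6 from 52363275 to 52365186), matching ATAF1, a NAC transcription factor that answers to drought and abscisic acid in Arabidopsis, had 363, 345 and 306 CPM in S1 and 44.1, 53 and 58 CPM in C1, against 12.4, 12.1 and 6.31 CPM in S0 and 12.8, 8.62 and 6.05 CPM in C0. Its libraries lay close together within S1 and within C1. Eucgr.C01524 (scaffold 3 from 24634535 to 24637738), matching EBF1, an F-box protein that removes the ethylene response factor EIN3, had 242, 86.6 and 161 CPM in S1 and 14.7, 17.9 and 20 CPM in C1, against 6.55, 3.03 and 4.6 CPM in S0 and 3.72, 1.92 and 3.3 CPM in C0. Eucgr.B04021 (scaffold 2 from 64051561 to 64053433), matching CIPK11, a protein kinase that works with calcium sensors of the CBL family, had 389, 294 and 399 CPM in S1 and 212, 195 and 221 CPM in C1, against 73.4, 74.5 and 60.5 CPM in S0 and 51.6, 62 and 55 CPM in C0. Eucgr.K02151 (scaffold 11 from 28582801 to 28584853), matching the protein phosphatase PLL5, had 233, 275 and 200 CPM in S1 and 225, 121 and 158 CPM in C1, against 57.6, 44.8 and 31.4 CPM in S0 and 28.7, 46.6 and 31.4 CPM in C0. For the phosphatase S1 and C1 overlapped, and for the kinase they did not.

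The remaining named transcripts concern sugars, redox state, water and glycosylation. Eucgr.L00248 (scaffold 17 from 281843 to 283252), matching galactinol synthase GolS2, whose product feeds the raffinose sugars that build up in droughted and cold plants, had 112, 69.1 and 119 CPM in S1 and 8.17, 17.3 and 14.4 CPM in C1, against 1.38, 1.82 and 1.02 CPM in S0 and 0.532, 0.319 and 0.55 CPM in C0. It had the highest ratio of lowest end to highest start value in the set, 4.49. That ratio rests on few reads, since GolS2 had 3 reads (1.82 CPM) in Mt Isa S0, its highest start value. Its C0 values rest on 3 reads in all, so that its C1 over C0 ratio from pooled reads, 29.3, has a 95% exact interval for counting error of 9.71 to 145. Eucgr.D00956 (scaffold 4 from 17491420 to 17495223), matching the glycolytic enzyme phosphofructokinase PFK2, had 202, 162 and 251 CPM in S1 and 22.5, 8.93 and 14.1 CPM in C1, against 3.45, 1.21 and 2.39 CPM in S0 and 3.19, 1.28 and 3.3 CPM in C0. Eucgr.F01854 (scaffold 6 from 24182997 to 24184892), matching TRX1, a thioredoxin of the h type that reduces disulphide bonds in the cytosol, had 373, 277 and 620 CPM in S1 and 30.2, 23.2 and 20 CPM in C1, against 3.1, 4.85 and 5.11 CPM in S0 and 5.85, 4.47 and 2.2 CPM in C0. As ratios of group means, C1 over C0 and S1 over S0 were 28.4 and 71.1 for GolS2, 5.85 and 87.4 for PFK2, and 5.87 and 97.3 for TRX1. By ratio the 2 arms of GolS2 were thus nearer each other than those of PFK2 and TRX1. On the CPM scale, C1 of all 3 genes stood only a small part of the way from the start level to S1.

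In contrast, Eucgr.E00628 (scaffold 5 from 6027438 to 6030025), matching PIP1B, a water channel of the plasma membrane, had 1004.6, 766 and 1183.4 CPM in S1 and 755, 574 and 684 CPM in C1, against 199, 195 and 223 CPM in S0 and 187, 208 and 259 CPM in C0. Eucgr.B02291 (scaffold 2 from 44027286 to 44030193), matching the glucosyltransferase UGT76D1, had 81.1, 90.2 and 99.9 CPM in S1 and 112, 64.9 and 84.7 CPM in C1, against 16.9, 22.4 and 22.8 CPM in S0 and 23.4, 29.1 and 19.3 CPM in C0. Both were within 1.5 times of each other in S1 and C1 by group means, at 985 and 671 CPM for PIP1B and 90.4 and 87.2 CPM for UGT76D1.

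A further 5 transcripts, without a name, were described for their level or their ratio. The one on scaffold 8 from 36913334 to 36918582 had the highest CPM of the unnamed ones over S1 and C1 together, with 900, 784 and 655 CPM in S1 and 772, 364 and 468 CPM in C1, against 96.8, 107 and 74.7 CPM in S0 and 67.6, 108 and 82 CPM in C0. The one on scaffold 11 from 32353837 to 32357839 averaged 876 ± 126 CPM in S1 and 271 ± 51.2 CPM in C1, against 68.5 ± 8.34 CPM in S0 and 62.5 ± 17.4 CPM in C0 (SD, n = 3 each). That on scaffold 8 from 54974913 to 54977304 averaged 411 ± 47.1 CPM in S1 and 139 ± 50.7 CPM in C1, against 19 ± 8.47 CPM in S0 and 17.7 ± 2.09 CPM in C0. In the last 2, all S1 libraries were above all C1 libraries, and in the first the groups overlapped. A transcript on scaffold 6 from 38641190 to 38642610 averaged 243 ± 125 CPM in S1 and 76.4 ± 42.4 CPM in C1, against 6.61 ± 2.11 CPM in S0 and 9.68 ± 1.31 CPM in C0. Another on scaffold 10 from 18114454 to 18117493 averaged 34.3 ± 11.8 CPM in S1 and 18.8 ± 2.78 CPM in C1, against 2.7 ± 1.66 CPM in S0 and 2.62 ± 0.648 CPM in C0.

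The 59 were mostly far apart in the genome. Apart from the pair of Eucgr.L02860, the nearest 2 lay on scaffold 4 with 56919 bases between them, and the next on scaffold 11 with 117811 bases between them. HSP18.2 showed how the rule cut through a gene cluster. On scaffold 10, 8 transcripts matching HSP18.2 lie within 182 kb (25744991 to 25926884), and of these only Eucgr.J01986 was in the set. Its neighbour Eucgr.J01982 had 1060.4, 584 and 644 CPM in S1 and 98, 17.9 and 52 CPM in C1, against 24.1, 10.9 and 13.6 CPM in S0 and 8.51, 13.4 and 10.5 CPM in C0, so its lowest end value, in Mt Isa C1, was under the highest start value. Eucgr.J01957, the first of the array, had 1010.4 to 1272 CPM in S1 and 113 to 246 CPM in C1, against 101, 50.9 and 66 CPM in S0 and 60.1, 85.3 and 71 CPM in C0, the highest start levels of the 8. Eucgr.J01959 missed the set narrowly, at a ratio of 1.92. Its lowest end value was 9.52 CPM, in Mt Isa C1, and its highest start value 4.95 CPM, in Petford C0. At an adjusted p under 0.01 in the quasi-likelihood test of edgeR (Benjamini-Hochberg), all 8 were called higher in S1 than in S0, and 2 of the 8 higher in C1 than in C0. For the copy in the set these calls use the contrasts of the rule and add nothing. Copies this alike may exchange reads in mapping, so the level of each copy is uncertain.

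**Figure D3:**
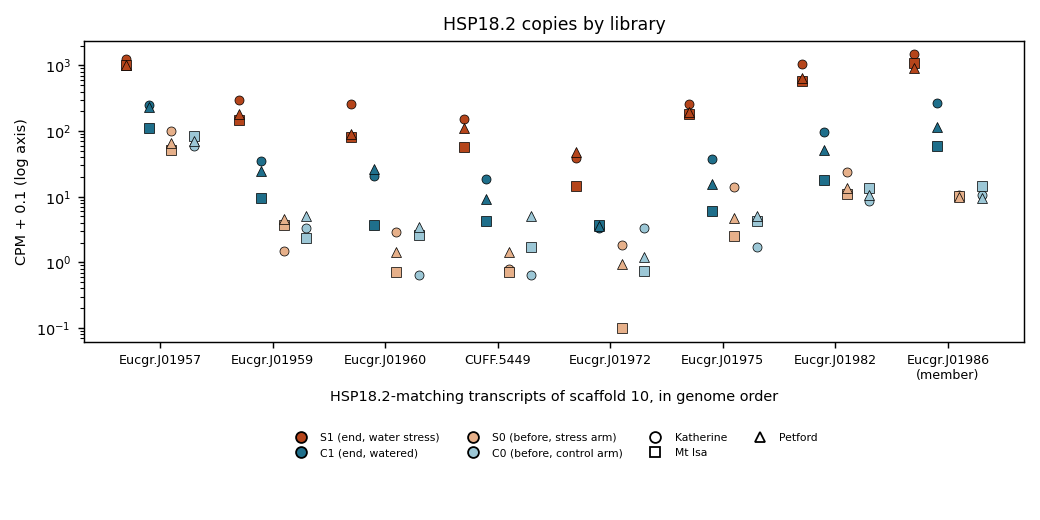
CPM (plus 0.1, log axis) of the 8 HSP18.2-matching transcripts of scaffold 10 in every library, with S1, C1, S0 and C0 from left to right within each transcript. All 8 are highest in S1; Eucgr.J01986 is the only one whose lowest C1 value (58.3 CPM) is at least 2 times the highest start value (14.7 CPM).

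Of the 2113 transcripts examined that had a product name, 17 were in the set. Against all transcripts whose names hold words for heat shock proteins or chaperones, the set held 8 of 59. This list was found by words, so it also holds heat shock transcription factors and other proteins that are not chaperones. Over the whole list, 10 of the 55 that could be tested for C1 against C0 were called higher and 5 lower. The 8 in the set were chosen for C1 above C0 and are all among the 10. Outside the set, 2 of 47 tested were called higher and 5 lower, beside 2.35% higher and 3.9% lower among all transcripts tested. The rule takes out those with the clearest difference between C1 and C0, so the calls among the others are a description only. The 2 higher ones outside the set were Eucgr.J01959 of the HSP18.2 array, with 23.2 and 3.46 CPM in C1 and C0, and Eucgr.L03563, matching HSP70, with 490 and 129 CPM in C1 and C0, both as group means. The 5 lower ones were Eucgr.A02931 (a homolog of the OR protein), Eucgr.C01043 (HSFC1), Eucgr.K02198 (CLPC1) and the DnaJ-domain transcripts CUFF.5969 and Eucgr.G02581. None of these 5 matched a small heat shock protein, HSP70 or HSP90. For S1 against S0, 45 of the 59 were called higher and 3 lower, again with the 8 chosen by the rule. Among the 51 outside the set 37 were higher and 3 lower, beside 8.85% and 10.3% of all transcripts. The 3 lower ones were Eucgr.F02327 (HSFB4) and the DnaJ-domain transcripts Eucgr.G02581 and Eucgr.H03319. Of these 59 transcripts 46 had been named from the list selected on C1 and S1, so their calls that involve S1 or C1 are not independent evidence. Galactinol synthase was the 1 transcript of the set among 29 named for sugar and starch, ATAF1 the 1 among 124 named transcription factors, PIP1B the 1 among 88 transporters and channels, TRX1 the 1 among 47 antioxidant enzymes, and UGT76D1 the 1 among 54 glycosyltransferases and serine carboxypeptidases. These counts of 1 stand beside the 17 of 2113 over all names, and no list was tested for an excess. The set held none of 39 photosynthesis transcripts, of which 30 were called lower in C1 than C0 and 30 lower in S1 than S0, and none of 26 ribosomal protein transcripts.

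S1 was compared with C1 to see whether the end level depended on the water supply, a contrast that the rule did not use directly. The rule holds both groups above the start, which limits how low S1 can be and, in the same way, how low C1 can be. The backgrounds over all transcripts carry no such limit, so neither the higher nor the lower count is fully comparable with them. The abundant transcripts used as a second background share only the floor of 5 CPM. All 59 could be tested in the quasi-likelihood test of edgeR, fitted over the whole table, and calls were made at a Benjamini-Hochberg adjusted p under 0.01. By this test 32 were higher in S1 (background 9.81% of 40440 transcripts), 1 was lower (background 12.5%) and 26 were not called. Among transcripts as abundant as the set at the end, with at least 5 CPM in all 6 end libraries, 20.3% were called higher and 13.1% lower. The median log2 fold change of the 59 was 0.96, beside -0.04 over all tested and 0.21 over the abundant ones. Every S1 library was above every C1 library for 37 of the 59 (20.4% of all tested) and below for 2 (26.5% of all tested). The 12 transcripts named from the study's own list of C1 and S1 differences were all called higher, which is not independent evidence. Of the other 47, 20 were higher and 1 was lower.

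Among the heat shock proteins 7 of 8 were called higher in S1 than in C1. These 7 are all among the 12 names taken from the list selected for a C1 and S1 difference, so that count follows from how names were found and is not independent evidence. HSP21 led with a log2 fold change of 4.88 ± 0.43 (SE, adjusted p = 1.04e-05, edgeR), followed by the nested HSP17.6A transcript of Eucgr.L02860 at 4.36 ± 0.54, its longer HSP17.6II partner at 4.23 ± 0.58 and Eucgr.C03071 at 4.06 ± 0.57. HSP70 was higher by 3.35 ± 0.42, HSP18.2 by 3.11 ± 0.45 and HSP23.6-MITO by 2.60 ± 0.36 on the log2 scale, with adjusted p between 0.000123 and 0.000325. HSP90.1, the 1 heat shock protein named by SNP position instead, was at 0.77 ± 0.26 with an adjusted p of 0.0392 in edgeR's test and overlapping groups. Also named from the C1 and S1 list, the thioredoxin TRX1 (4.28 ± 0.35), PFK2 (3.88 ± 0.32), EBF1 (3.37 ± 0.38), GolS2 (3.09 ± 0.33) and ATAF1 (2.83 ± 0.19) were higher in S1. CIPK11 was the 1 of 5 transcripts named by SNP position that was called higher, 0.93 ± 0.20 (adjusted p = 0.00474, edgeR), and leaving out Katherine C1, Katherine S1, Mt Isa C1 or Petford S1 took it to adjusted p of 0.0199 to 0.0228.

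Water channel PIP1B (0.70 ± 0.23, adjusted p = 0.0354), phosphatase PLL5 (0.61 ± 0.22, adjusted p = 0.0493) and glucosyltransferase UGT76D1 (0.19 ± 0.21, adjusted p = 0.543) did not pass the threshold in edgeR's test between S1 and C1. With HSP90.1, these were the named transcripts not called between S1 and C1. With population as a block, HSP90.1 (adjusted p = 0.00331, edgeR) and PIP1B (adjusted p = 0.00701) were called higher in S1. Of the 26 not called, 24 had a positive log2 fold change, and they spanned -1.75 to 1.02 with a median of 0.32. Over all transcripts with at least 5 CPM in all 6 end libraries the median was 0.21, so small positive values are not particular to the set. They depend on scaling too: the median transcript was at -0.06 in S1 over C1 by library totals and at 0.17 by TMM. In simulated data, of 100 transcripts changed 2-fold between C1 and S1, 10 were called, and of 100 changed 4-fold, 75. Far fewer transcripts were changed there than the 9020 of 40440 called in the data, which makes the adjusted threshold stricter in the simulation. The simulated shares therefore do not give the detection limit of these 6 libraries. Among the 32 called higher, log2 fold changes began at 0.9.

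**Figure D4:**
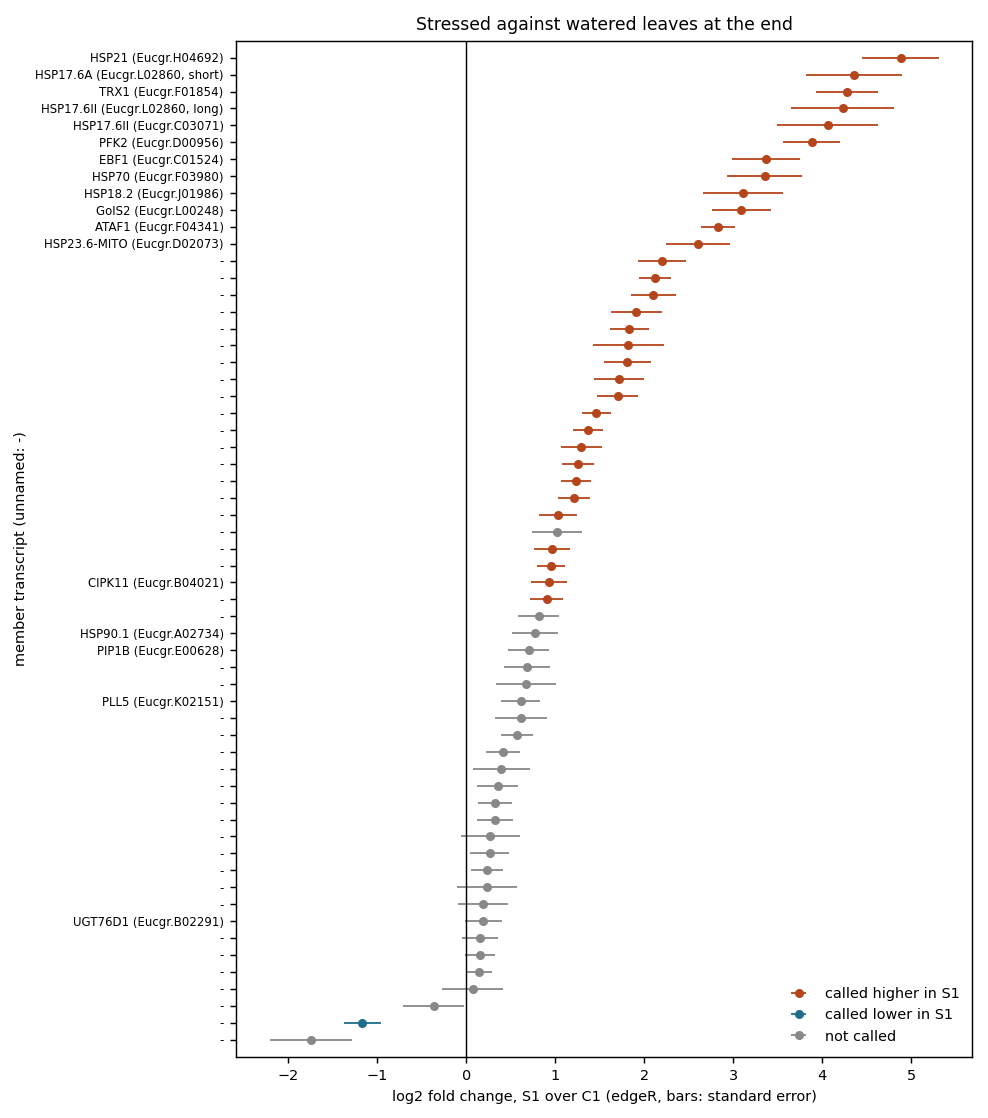
log2 fold change of S1 over C1 for each of the 59 transcripts from edgeR, with standard errors as bars; colours mark those called higher or lower in S1 at an adjusted p under 0.01. Of the named transcripts, HSP21 is at the top (4.88) and UGT76D1 is the lowest (0.19), and 1 unnamed transcript is called lower (-1.17).

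The 1 transcript called lower in S1, on scaffold 3 from 13053811 to 13056315 and singled out after its values were seen, had 91.1, 87 and 129 CPM in S1 and 255, 277 and 235 CPM in C1, against 24.1, 27.3 and 23.7 CPM in S0 and 22.3, 18.2 and 19.8 CPM in C0. Its log2 fold change of S1 over C1 was -1.17 ± 0.21 (adjusted p = 0.00146, edgeR). In this transcript the watered leaves were the higher ones in every population, and both end groups were above both start groups. A second one with all S1 libraries under all C1 libraries, on scaffold 4 from 31591801 to 31594042, had 13.1, 12.6 and 18.3 CPM in S1 and 110, 36.3 and 23.9 CPM in C1, against 0.689, 1.82 and 1.53 CPM in S0 and 5.85, 2.55 and 3.85 CPM in C0. It was not called, at -1.75 ± 0.46 (adjusted p = 0.0128, edgeR), and its C1 values differed widely among populations.

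Of the unnamed transcripts, 19 of 42 were higher in S1 than in C1. The largest log2 fold change among them was 2.20, on scaffold 8 from 66187632 to 66189445, which averaged 196 CPM in S1, 46.7 CPM in C1, 8.3 CPM in S0 and 5.41 CPM in C0. The abundant transcripts on scaffold 11 (32353837 to 32357839) and scaffold 8 (54974913 to 54977304) were higher by 1.83 ± 0.22 and 1.70 ± 0.23, and the one on scaffold 6 (38641190 to 38642610) by 1.82 ± 0.40. The last lost its call, at adjusted p of 0.018 to 0.0287, without Katherine S1, Mt Isa C1 or Petford C1. The unnamed transcript on scaffold 8 from 36913334 was at 0.68 ± 0.26 (adjusted p = 0.0618, edgeR) and the one on scaffold 10 at 1.02 ± 0.28 (adjusted p = 0.0148, edgeR), and with population as a block both were called (adjusted p = 0.00544 and 0.00259). At the low end, the transcript on scaffold 10 from 23896405 to 23897306 had 12.9 CPM in S1 and 12.7 CPM in C1 as group means.

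No difference between the arms was detected before the treatment. Of the 58 transcripts with enough reads in S0 and C0, 0 were called by edgeR's quasi-likelihood test (background 0.191% of 36048, 0.0888% higher and 0.103% lower), 4 had an unadjusted p under 0.05, and 0 were called by edgeR's exact test or by DESeq2, which gave no adjusted p for 9 of them. Among transcripts with at least 5 CPM in all end libraries, 0 of 12095 were called by edgeR's quasi-likelihood test. The 0 of 58 is therefore not particular to the set. The rule also caps every S0 and C0 value below the end values, which limits how high either start group can be. The log2 fold changes of S0 over C0 ran from -1.37 to 1.64, with a median of 0.15, beside 0.03 over all tested. S0 and C0 did not overlap for 7 of the 59, 3 with S0 above and 4 with S0 below (background 11.4%). In simulated data 64 of 100 transcripts changed 4-fold between S0 and C0 were called and 4 of 100 changed 2-fold. GolS2 had 13 reads in S0 and 3 in C0, a pooled ratio of 2.85 with a 95% exact interval of 0.782 to 15.6.

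Whether the difference between end and start was larger in stressed than in watered seedlings was tested as the change (S1 - S0) minus the change (C1 - C0) over all 12 libraries. The rule puts both changes on the same side and so limits this difference but does not fix it. By edgeR's test 17 of the 59 had a larger change in the stress arm (background 4.04% of 43146) and 1 a smaller change (background 6.68%). Among transcripts with at least 5 CPM in all end libraries these shares were 10.5% and 8.3%. The S1 and S0 libraries of a population come from the same seedlings, as do C1 and C0, and with the bulk of seedlings as a block 29 of the 59 were called, against 18 without it. The block raised the share called among all 43146 transcripts as well, to 16.6% against 10.7% without it, both directions together. Of the 12 transcripts named from the C1 and S1 list, 9 were called, which is not independent evidence, and of the other 47, 8 were called with a larger and 1 with a smaller change under stress. Leaving out Mt Isa C0 brought the 18 to 12.

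Among the named transcripts called, HSP21 had the largest difference of changes, 5.14 ± 0.65 on the log2 scale (adjusted p = 1.66e-05, edgeR), followed by the longer Eucgr.L02860 transcript (4.11 ± 0.87), TRX1 (4.11 ± 0.58), PFK2 (3.71 ± 0.68) and Eucgr.C03071 (3.57 ± 0.87). HSP18.2 (3.22 ± 0.58), HSP70 (2.68 ± 0.55), ATAF1 (2.67 ± 0.37) and HSP23.6-MITO (2.19 ± 0.54) passed the test as well. For these the stress arm changed more, although the watered arm stood above its start too. Leaving out Mt Isa C0 took HSP70 to an adjusted p of 0.0107 and the longer Eucgr.L02860 transcript to 0.0185 in edgeR. Eucgr.C03071 lost its call with any of 8 libraries left out (adjusted p up to 0.0438) and HSP23.6-MITO with any of 9 (up to 0.043). The nested HSP17.6A transcript (4.36 ± 1.18, adjusted p = 0.0143) and EBF1 (2.49 ± 0.69, adjusted p = 0.016) were not called by edgeR without the block, and with it they were, at 4.54 (adjusted p = 2.92e-09) and 2.56 (adjusted p = 4.04e-06). The same was true of the transcript on scaffold 6 from 38641190, at 2.22 ± 0.59 without the block (adjusted p = 0.0132) and 2.21 with it (adjusted p = 2.18e-09).

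The changes of HSP90.1 (0.68 ± 0.38), PIP1B (0.70 ± 0.32), CIPK11 (0.57 ± 0.27), PLL5 (0.26 ± 0.36), UGT76D1 (0.32 ± 0.33) and GolS2 (1.54 ± 1.10) were not called different between the arms by edgeR, with adjusted p from 0.148 to 0.713. For GolS2 the few reads at the start make the estimate wide. In simulated data the test called 45 of 100 transcripts with a 4-fold difference of changes and 1 of 100 with a 2-fold one. Far fewer transcripts were changed there than the 4621 of 43146 called in the data, so these shares do not give the detection limit. A transcript on scaffold 3 from 38046789 to 38049291 is among the 17 but had no read in S0, so its fitted difference is not interpretable. It had 41.5, 36.3 and 43.4 CPM in S1 and 14.3, 5.95 and 14.1 CPM in C1, 0 CPM in the S0 libraries and 0.532, 1.6 and 1.1 CPM in C0, which puts S1 at least 143-fold higher than S0, taking 3 reads summed over S0 as the floor. The transcript on scaffold 3 from 13053811 was the 1 with a smaller change under stress, -1.55 ± 0.28 (adjusted p = 0.000658, edgeR).

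**Figure D5:**
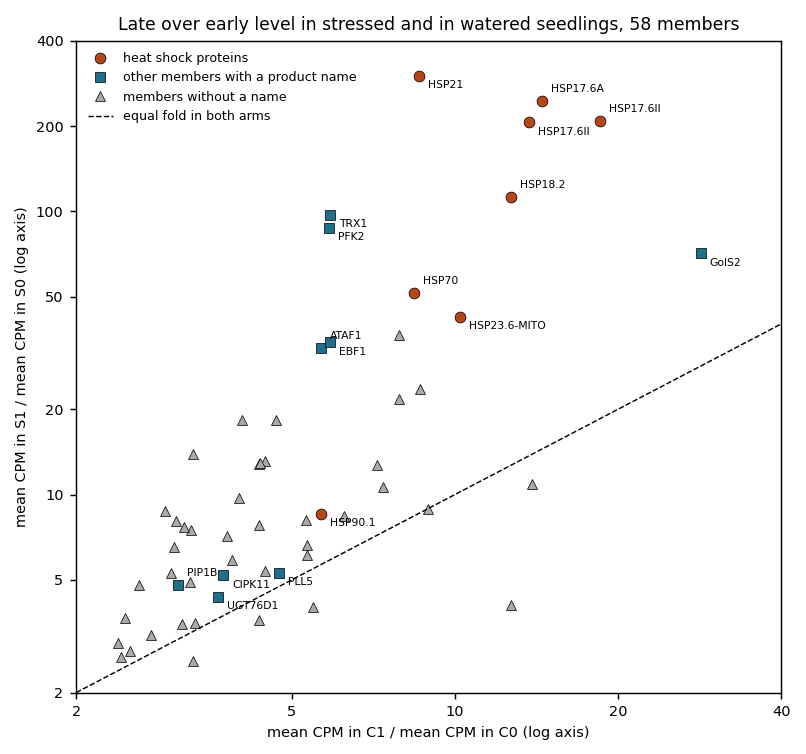
Ratio of mean CPM at the end to that at the start, in the stress arm (S1 over S0, vertical) and in the watered arm (C1 over C0, horizontal), both on log axes, for the 58 transcripts with reads in S0; the dashed line marks equal ratios. HSP21 (301 and 8.6), HSP17.6II and HSP17.6A lie far above the line, HSP90.1 (8.57 and 5.67) and PLL5 (5.3 and 4.73) lie near it, and 1 unnamed transcript (4.09 and 12.7) lies well below.

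With the group as a term, 3 of the 59 differed among Katherine, Mt Isa and Petford by edgeR's test (background 1.18% of 43146, and 0.942% of those with at least 5 CPM in all end libraries), and 16 had an unadjusted p under 0.05. In simulated data this test called 37 of 100 transcripts with a 2-fold difference among populations and 93 of 100 with a 4-fold one. The 3 were small heat shock transcripts, both of Eucgr.L02860 and Eucgr.C03071 (adjusted p of 0.00211, 0.000148 and 0.00959, edgeR), and the first 2 share reads. Eucgr.L02860's longer transcript had 1490.6, 762 and 753 CPM in S1 and 120, 18.5 and 39 CPM in C1 (Katherine, Mt Isa, Petford), so Katherine was highest in both end groups. The p-values over populations are too small, because libraries of the same seedlings entered at both times. DESeq2 called 1 of the 59. Leaving out Mt Isa C0 raised the 3 to 8, and leaving out Katherine C0, Katherine S0 or Petford S0 raised it to 5.

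Membership depended strongly on how libraries were scaled. TMM factors, which allow for a few transcripts taking many reads, were 0.938 to 1.11 in S1 and 1.11 to 1.22 in C1, against 0.771 to 1.02 in S0 and 0.947 to 0.994 in C0. The 10 most abundant transcripts took 4.74 to 5.95% of reads in S1 and 3.73 to 5.38% in C1, against 8.35 to 13.2% in S0 and 9.11 to 10% in C0. By library totals the median transcript stood 0.33 higher at the end than at the start on the log2 scale, and by TMM 0.09 higher. Between S1 and C1 the median was -0.06 by totals and 0.17 by TMM. With TMM-scaled CPM the rule kept 21 transcripts, all of them among the 59. Of the named transcripts, those 21 included HSP18.2, HSP21, Eucgr.C03071, the nested Eucgr.L02860 transcript, TRX1, ATAF1 and GolS2. They left out HSP90.1, HSP70, HSP23.6-MITO, the longer Eucgr.L02860 transcript, PFK2, EBF1, PIP1B, CIPK11, PLL5 and UGT76D1. With a ratio of 3 in place of 2, 16 were kept, and with 1.5, 206.

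The thresholds cut through a continuum. Just inside the ratio of 2 were transcripts on scaffold 3 from 60170815 (2.007, with a lowest end value of 5.13 CPM), scaffold 9 from 37842261 (2.007) and scaffold 5 from 2026788 (2.034). Just outside were those on scaffold 5 from 801034 and scaffold 1 from 8865175 (1.984 each) and Eucgr.F00114 on scaffold 6, matching a salt tolerance zinc finger protein (1.972). On the level of 5 CPM, the nearest inside were at 5.13, 5.31 and 5.95 CPM and the nearest outside at 4.99, 4.94 and 4.76 CPM, the last being Eucgr.A01180, matching ascorbate peroxidase 2.

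Levels of transcripts named for cell types also differed between the times. Summed over 23 transcripts named for photosystems, light harvesting or Rubisco, which mark leaf mesophyll and none of which was at 0 in any group, the level was 9057 to 10996 CPM in S1 and 18747 to 27570 CPM in C1, against 45239 to 82511 CPM in S0 and 50595 to 63460.0 CPM in C0. The 33 transcripts named for histones, tubulins, cyclins or kinesins summed to 1187 to 1294 CPM in S1 and 4402 to 6492 CPM in C1, against 2920 to 3213 CPM in S0 and 3240 to 4326 CPM in C0, with 1 at 0 in S1. The 29 xylem and secondary wall transcripts summed to 1214 to 1560 CPM in S1 and 7519 to 9985 CPM in C1, against 2436 to 3110.3 CPM in S0 and 2479 to 2898 CPM in C0, with 3 at 0 in S1 and 1 in C0. For 24 epidermis transcripts the sums were 6732 to 10095 CPM in S1 and 5268 to 6086 CPM in C1, against 4361 to 5199 CPM in S0 and 4527 to 5289 CPM in C0, with 1 at 0 in each group. The 2 phloem transcripts summed to 201 to 285 CPM in S1 and 69.1 to 99.7 CPM in C1, against 69.7 to 124 CPM in S0 and 78.1 to 127 CPM in C0. Mesophyll markers were thus lower in both end groups, while dividing and xylem markers were higher in C1 and lower in S1 than at the start, and epidermis and phloem markers were higher in S1. The markers were found by words in the names of the same supplementary lists, one of them selected for a C1 and S1 difference. Differences of these sums that involve S1 or C1 therefore depend on how names were found and are not independent evidence on the make-up of the leaf. The part of these shifts in the levels of the 59 transcripts was not tested.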

How the data were processed

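Leaf mRNA of 12 libraries was measured by RNA-seq. The authors aligned reads with TopHat and Bowtie to a draft E. grandis genome, built transcripts with Cufflinks from all libraries together, and used bedtools to count the reads on each. They deposited these raw counts without normalization. Neither tool versions nor the genome release is given in the sources used here. No sequence is printed, since no genome was used. Library totals ranged from 1726793 to 6951584 counts, so that 1 read was 0.151 to 0.606 CPM.

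Of 43425 rows, 245 identical ones were dropped and 1633 that shared scaffold and start with another were left out of the rule and of the CPM totals. Names came from the study's supplementary lists, 12 by coordinates (from 1736 entries) and 5 by SNP position (from 1840 SNPs). Both lists were shortened copies, which limits every count of named transcripts. Names by coordinates were used with matches up to an E value of 1e-05, and names by SNP position were used as given. The members, lists and tests were chosen with earlier results of these data known. Named transcripts are all those with a product name, plus the 3 unnamed ones with the highest end level and the 3 with the highest ratio, which overlap in 1.

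All 43180 distinct rows were fitted with edgeR 4.0.16 in R 4.3.3 (TMM, a minimum of 10 reads in the fitted libraries together, quasi-likelihood F test, 2-sided, Benjamini-Hochberg at 0.01). S1 against C1 and S0 against C0 used only the 6 libraries compared. The difference of changes and the populations used all 12. Standard errors were obtained by dividing the log2 fold change by the root of the F statistic. DESeq2 1.42.0, edgeR's exact test, other size factors, no filter, a block and leaving out each library were alternatives. The fits were tested on simulated counts, where 2 to 10 unchanged transcripts per comparison were called. For S1 against C1, 9 unchanged ones were called beside 10 of those changed 2-fold and 75 of those changed 4-fold. That is a larger share of the calls than the threshold of 0.01. After removing group means, libraries of the same seedlings correlated at 0.194 to 0.307 (S1 and S0) and 0.225 to 0.246 (C1 and C0). The main fits did not use this pairing, and only the block alternative of the difference of changes did. Bulks are of different seedlings within a population between the arms. Intervals cover counting error only.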

Additional observations from a re-analysis of the deposited data

Results flagged for a closer look

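For 12 of the named or described transcripts the change from start to end differed between the stress arm and the watered arm, by edgeR's quasi-likelihood test of (S1 - S0) - (C1 - C0). On the log2 scale the difference was 5.14 for Eucgr.H04692 (HSP21), 4.11 for the longer Eucgr.L02860 transcript (HSP17.6II), 3.57 for Eucgr.C03071 (HSP17.6II), 3.22 for Eucgr.J01986 (HSP18.2), 2.68 for Eucgr.F03980 (HSP70) and 2.19 for Eucgr.D02073 (HSP23.6-MITO). Outside the heat shock proteins it was 4.11 for Eucgr.F01854 (TRX1), 3.71 for Eucgr.D00956 (PFK2) and 2.67 for Eucgr.F04341 (ATAF1). The unnamed transcripts were those on scaffold 11 from 32353837 to 32357839 (1.65), scaffold 8 from 54974913 to 54977304 (1.64) and scaffold 3 from 13053811 to 13056315 (-1.55), the last with the larger change in watered seedlings.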

How the results depend on the processing

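The number of transcripts chosen, 59, was 21 with TMM-scaled CPM, 206 at a ratio of 1.5 and 16 at a ratio of 3, and 61 to 102 with each library left out, the last without Mt Isa C1. The count higher in S1 than C1, 32, was 27 to 34 with each library left out, and 20 without the transcripts named from the study's C1 and S1 list (an alternative chosen after seeing the data, with fewer transcripts counted). The count lower in S1, 1, was 2 with DESeq2, the exact test or an adjusted p of 0.05, and 1 to 2 with each library left out. The 0 called in S0 against C0 stayed 0 in every alternative run. The 18 called in the difference of changes were 29 with the bulk of seedlings as a replicate block and 12 to 21 with each library left out. The 3 called among populations were 1 with DESeq2, 8 at an adjusted p of 0.05, and 2 to 8 with each library left out.

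S1 and C1 libraries of the same population share a seed source but not seedlings, and their deviations correlated at 0.0517 to 0.143. Population as a replicate block gave 36 higher and 2 lower there, and 0 for S0 against C0. It brought HSP90.1 (adjusted p = 0.00331), PIP1B (0.00701), the scaffold 8 transcript from 36913334 (0.00544) and that on scaffold 10 from 18114454 (0.00259) past the threshold by edgeR. Signs turned for UGT76D1 in S1 against C1 (-0.01 without Mt Isa C1, within -0.01 to 0.33 over the libraries left out) and for PLL5 in the difference of changes (-0.04 without Mt Isa C0, -0.0044 without Petford S0, within -0.04 to 0.52), none of them called. The differences of changes of HSP17.6II (Eucgr.C03071), HSP23.6-MITO and the scaffold 8 transcript from 54974913 each lost the call with any of 8 or 9 of the libraries left out, at adjusted p up to 0.0438. For S0 against C0 the alternatives per transcript were run for GolS2 only. Causes of these differences were not tested. Transcripts under about 3 reads per group, GolS2 in C0 and that on scaffold 3 from 38046789 in S0, are limited by depth.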
